A study of Mus musculus with 20 samples.

Results

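*6030452D12Rik* (ENSMUSG00000054069) and *Matn1* (ENSMUSG00000040533) were followed in 20 RNA-seq libraries of cultured mouse nephron progenitor cells (NPCs), as 2 of the 31130 genes in the deposited table. They were chosen by symbol, which only the deposited comparison tables give. *6030452D12Rik* is listed there for QCKO against CTRL, under each CHIR dose, and *Matn1* for low against high CHIR in CTRL. The pair was picked with the cadherin knockout (QCKO) in view. Values from those comparisons, and from the other comparisons with CTRL or QCKO libraries, are therefore given as a description with no test. The tests, of *Matn1* and the genes set beside it, compare the α-catenin KO and β-catenin KO libraries, which did not enter the comparisons that list either gene.

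NPCs were isolated from E16.5 kidneys of crosses between mice carrying a CAG-driven Cas9-eGFP allele at *Rosa26* and SWR/J mice, so cells of every group, CTRL included, expressed Cas9. Synthetic sgRNAs were introduced together with mCherry mRNA, and mCherry-positive cells were sorted at the end of a 48 h knockout period followed by 24 h of CHIR, at 1.25 µM (low CHIR) or 5 µM (high CHIR). CTRL received an sgRNA against GFP, QCKO a pool against *Cdh2*, *Cdh3*, *Cdh4* and *Cdh11*, α-catenin KO an sgRNA against *Ctnna1* and β-catenin KO an sgRNA against *Ctnnb1*. Under each CHIR dose there were 3 libraries of CTRL and of β-catenin KO, and 2 of QCKO and of α-catenin KO. Every library is a pool of edited cells, not a clone, and replicate numbers stand for 3 dates in the sample titles that the groups have in common (the labels do not say which step was dated), with α-catenin KO present on dates 1 and 3 and QCKO on dates 2 and 3. Library totals ran from 18124772 to 28472412 reads (median 21449823).

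CHIR blocks GSK3β, which otherwise sends β-catenin to degradation, so high CHIR mimics a strong canonical Wnt signal and moves NPCs from self-renewal towards nephron formation. β-Catenin acts both with Lef/Tcf factors on transcription and, with α-catenin, at the inner face of cadherins in cell contacts. *Matn1* encodes matrilin 1, a secreted matrix protein best known from cartilage, where it binds collagen fibrils and aggrecan. *6030452D12Rik* is named after a RIKEN cDNA clone.

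The sgRNAs against *Cdh3*, *Cdh4* and *Cdh11* are shown because they define, with that against *Cdh2*, the QCKO libraries in which both genes reached their highest levels. Each is written 5′ to 3′ with the 10 bases next to the PAM in capitals.
Cdh3: ccgaugaagcCCGCUCGGUA
Cdh4: ccauccccagGCCCACCGUG
Cdh11: caccagcacaGGGUCAGGCC
Of the targeted cadherins, *Cdh11* mRNA in QCKO was 0.701 and 0.423 times its same-date CTRL value under low CHIR (dates 2 and 3) and 0.533 and 0.299 times under high CHIR. *Cdh2*, by the same ratio, stood at 0.672 and 0.924 under low CHIR, then at 1.24 and 0.910 under high CHIR. *Cdh4* stood at 0.951 and 1.04 under low CHIR, then at 1.32 and 0.872 under high CHIR. *Cdh3* stood at 0.738 and 1.36 under low CHIR, then at 1.31 and 0.936 under high CHIR. A frameshifted mRNA can persist, so these ratios do not measure how much protein was lost. By immunofluorescence, the study found no Cdh2 or Cdh11 protein left to detect and most Cdh3 and Cdh4 protein gone after single knockouts. It reported a like efficiency when sgRNAs were combined.

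*6030452D12Rik* was close to the limit of detection in all groups except QCKO. In CTRL in low CHIR its normalized counts (reads divided by a size factor for each library) were 0.893, 3.25 and 3.18, from 7 reads in all. In QCKO in low CHIR they were 58.1 on date 2 and 93.5 on date 3, from 164 reads. The QCKO and CTRL libraries did not overlap, and the ratio of the group means (75.8 ± 25.03, SD, n = 2, against 2.44 ± 1.34, n = 3) was 31.1. On pooled reads the ratio was 32.0, with a 95% exact interval of 15.2 to 80.8 that covers counting error only. Within a date, QCKO stood 17.9 times above CTRL on date 2 and 29.5 times on date 3. The log2 fold change of 4.53 was the highest of the 16691 genes fitted, a rank that follows from the comparison that chose the gene, and with 5 rather than 1 added to each count the value was 3.42. Of those genes, 0.00599% were called in this comparison, a call being a log2 fold change beyond 0.5 either way whose adjusted p was under 0.05.

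In high CHIR, *6030452D12Rik* remained higher in QCKO than in CTRL, by a smaller ratio. QCKO held normalized counts of 19.3 and 20.6 from 38 reads, and CTRL held 6.80, 11.7 and 3.13 from 21 reads. The groups did not overlap, although the date 2 libraries were 1.64 times apart while those of date 3 were 6.56 times apart. The ratio of the means was 2.76, and on pooled reads 2.95 (95% counting interval 1.69 to 5.29). By limma no gene (0%) was called in this comparison, with 1744 genes at an unadjusted p under 0.05, and edgeR called 0 and DESeq2 1. Some markers of other kidney cells also differed between these libraries. The summed ureteric markers (6 of a list of 13 with an identifier) ran from 1880 to 2258 in QCKO and from 899 to 1110 in CTRL, and *Tek*, the sole endothelial marker with an identifier, from 221 to 357 and from 89.7 to 177. *Meis1*, the sole stroma marker with an identifier, overlapped, at 890 to 1091 in QCKO and 750 to 1090 in CTRL. The summed NPC markers overlapped too, at 2225 to 2467 and 2385 to 3156. The part of any of these markers in the difference was not tested. QCKO was higher in low than in high CHIR on both of its dates, by ratios of 3.01 and 4.55, whereas CTRL was higher in high CHIR on dates 1 and 2 and about level on date 3. Whether the response to CHIR differs between QCKO and CTRL is fixed in part by the choice of the gene and was not tested.

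**Figure D1:**
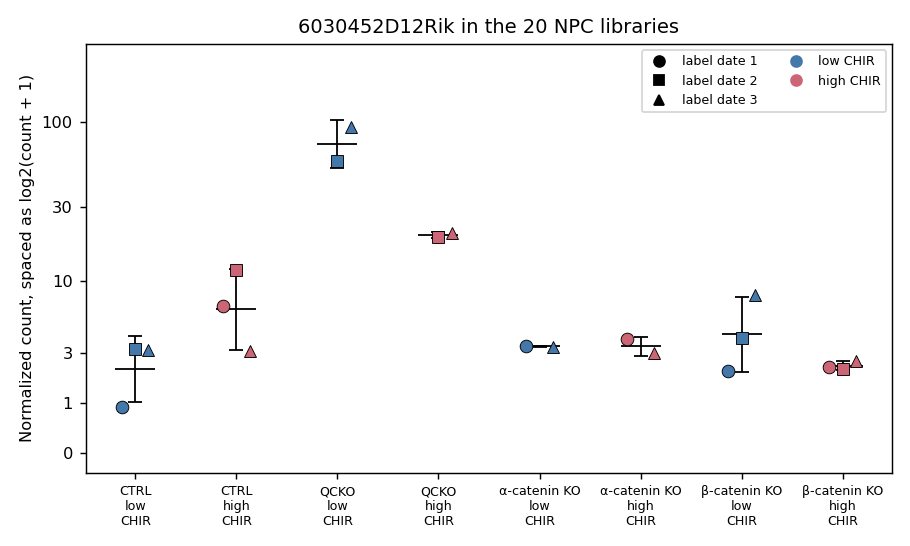
Normalized count of 6030452D12Rik in each of the 20 libraries, on an axis spaced as log2(count + 1). Symbols give the date in the sample title, blue is low CHIR and red high CHIR, and bars give the mean and SD of the log2 values of each group. The QCKO libraries lie at 58.1 and 93.5 under low CHIR, at 19.3 and 20.6 under high CHIR, and every other library lies at 11.7 or lower.

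*6030452D12Rik* in the catenin knockouts lay below its level in QCKO. α-Catenin KO libraries read 3.44 and 3.39 under low CHIR, then 3.86 and 3.03 under high CHIR. β-Catenin KO libraries read 2.15, 3.998 and 8.01 under low CHIR, then 2.31, 2.22 and 2.60 under high CHIR. All 10 catenin knockout libraries lay below both QCKO libraries of either CHIR condition. The order of the group means placed QCKO in low CHIR first, QCKO in high CHIR next and CTRL in high CHIR after it, each without overlap with the one before. The remaining groups had means from 2.38 to 4.72 and, at 1 to 10 reads a library, were not separated beyond their spread from their neighbours in the order.

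Across the 20 libraries its mean was 12.8, higher than that of 4.39% of the genes fitted, and without the QCKO libraries it was 4.001, below the minimum of 10 for a gene to be tested. It entered the fit only through QCKO, so no test of it among the catenin knockouts, which held 2 to 10 reads a library, is given.

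*Matn1* was readily detected in low CHIR and, outside β-catenin KO, was near 0 reads in high CHIR. In low CHIR, CTRL libraries held normalized counts of 55.3, 83.4 and 135, from 267 reads. In high CHIR they held 0, 1.07 and 0, from 1 read. This is the comparison that listed the gene, and on pooled reads its low to high ratio was 276 (95% counting interval 49.2 to 10960), in a comparison that called 10.7% of genes. QCKO libraries held 356 and 1003 in low CHIR, against 1.21 and 3.74 in high CHIR, a pooled ratio of 251 (107 to 775), where 3.95% of genes were called. With 1 read in CTRL and 5 in QCKO in high CHIR, these intervals are too wide to compare the 2 responses, which was not tested. The low CHIR level was higher in QCKO. In a bulk library, fewer cells with the transcript and less transcript in each cell cannot be told apart.

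**Figure D2:**
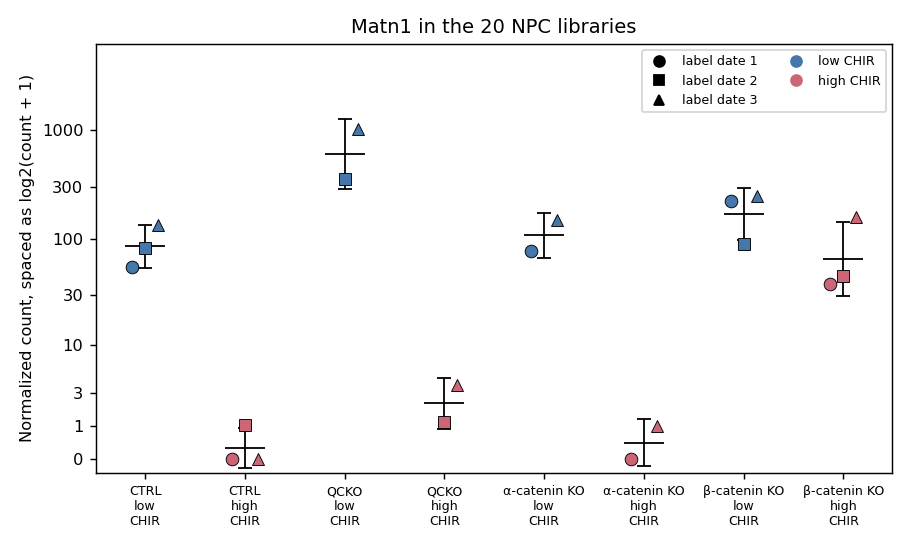
Normalized count of Matn1 in each of the 20 libraries, drawn as for the other gene. The low CHIR libraries lie between 55.3 and 1003, the high CHIR libraries of CTRL, QCKO and α-catenin KO between 0 and 3.74, and those of β-catenin KO between 38.1 and 160.

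Among the libraries that did not choose it, *Matn1* fell in high CHIR in α-catenin KO. The low CHIR libraries held 77.4 and 150 (267 reads), and the high CHIR libraries held 0 and 1.01 (1 read). The groups did not overlap on either date. The log2 fold change was -6.26 (95% interval -7.86 to -4.66, SE 0.75, limma adjusted p = 1.86e-04), the sixth lowest of 16691 genes, where 3.35% of genes were called in either direction and 1.82% lower. Pooled reads gave a ratio of 202 (95% counting interval 35.9 to 7995), and the fitted value understates it because 1 was added to each count (it was -4.37 with 5 added). In the same comparison *Six2*, a transcription factor that keeps NPCs in self-renewal, fell by 4.77 on the log2 scale (adjusted p = 1.51e-06) and *Wnt4*, a Wnt ligand of forming nephrons, rose by 6.21 (adjusted p = 0.00548).

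In β-catenin KO, *Matn1* stayed measurable in high CHIR. The libraries held 221, 91.0 and 247 under low CHIR, then 38.1, 45.4 and 160 under high CHIR, and these ranges overlapped. Every date had the lower value in high CHIR, with low to high ratios of 5.81, 2.002 and 1.54. The log2 fold change of -1.37 (95% interval -2.68 to -0.07, adjusted p = 0.999) was not called, in a comparison that called 0.018% of genes. Leaving out single libraries moved it between -2.01 and -0.99. On pooled reads the ratio was 2.15 (1.86 to 2.50), an interval that covers counting error and leaves out the spread between dates. In the same comparison *Six2* (-0.87, adjusted p = 0.809) and *Wnt4* (1.82, adjusted p = 0.999) were not called, although on every date *Six2* was lower and *Wnt4* higher in high CHIR. The libraries differed widely in *Wnt4*, which stood at 30.1, 831 and 634 under low CHIR, then at 252, 2387 and 1200 under high CHIR. Date 1 was the lowest in *Wnt4* at each dose, and the part of these differences in the values of *Matn1* was not tested.

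The direct comparison of the catenin knockouts called *Matn1* in high CHIR alone. There, β-catenin KO (81.3 ± 68.6, SD, n = 3) lay above α-catenin KO (0.504 ± 0.713, n = 2) without overlap, by a log2 fold change of 5.55 (95% interval 4.09 to 7.01, SE 0.69, limma adjusted p = 3.08e-04), or 3.70 with 5 added to each count. It was the eleventh highest of all genes fitted, of which 2.14% were called in either direction and 1.75% higher. In low CHIR the libraries overlapped (187 ± 83.8, n = 3, against 114 ± 51.5, n = 2) and the log2 fold change was 0.66 (-0.80 to 2.12, adjusted p = 0.951), where 0.012% of genes were called.

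The difference between the responses to CHIR in β-catenin KO and α-catenin KO shares all its libraries with these comparisons. For *Matn1* it was 4.89 on the log2 scale (95% interval 2.83 to 6.96, unadjusted p = 1.23e-04, limma adjusted p = 0.0596), which did not pass the threshold, in a comparison that called 0.15% of genes. With this date as a replicate block the value stayed at 4.89 and the adjusted p was 0.0046. Over all 19 alternatives it was called in 4, with adjusted p from 0.0046 to 0.311.

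**Figure D3:**
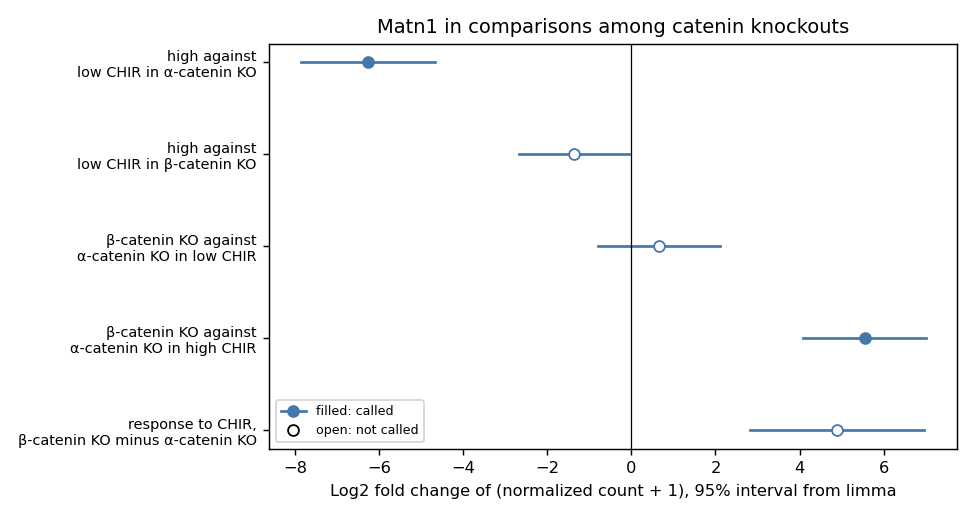
Log2 fold change of (normalized count + 1) with its 95% interval from limma, for Matn1 in the comparisons among catenin knockout libraries. Filled points passed an adjusted p of 0.05. The filled points are high against low CHIR in α-catenin KO (-6.26) and β-catenin KO against α-catenin KO in high CHIR (5.55).

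Set against CTRL in the same condition, *Matn1* in QCKO was higher in low CHIR, with means of 679 ± 458 (SD, n = 2) and 91.4 ± 40.7 (n = 3) and a ratio of 7.43. The QCKO libraries did not overlap those of any other group. The same-date ratio was 4.26 on date 2 and 7.40 on date 3. The log2 fold change of 2.79 was the third highest of all genes fitted and, without the QCKO library of date 3, was 2.04. Both genes were picked with the cadherin knockout in view and earlier results known, so this rank too is a description. In high CHIR the QCKO libraries held 5 reads and CTRL 1 read, so the pooled ratio of 8.15 had a counting interval of 0.912 to 386 and gave no reliable size. β-Catenin KO in low CHIR stood 4.001, 1.09 and 1.83 times above CTRL on the 3 dates, and α-catenin KO had a mean 1.25 times that of CTRL with overlapping libraries.

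The levels of *Matn1* also differed between dates. Date 3 held the highest value in every group except CTRL in high CHIR, where its library was at 0 reads. The QCKO mean comes from dates 2 and 3 alone, and in CTRL in low CHIR date 1 was the lowest, which is why same-date ratios stand beside the ratio of means. In order of the means, QCKO in low CHIR came first without overlap. The low CHIR libraries of β-catenin KO, α-catenin KO and CTRL and the high CHIR libraries of β-catenin KO followed, each overlapping its neighbour, and the high CHIR libraries of QCKO, α-catenin KO and CTRL came last.

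**Figure D4:**
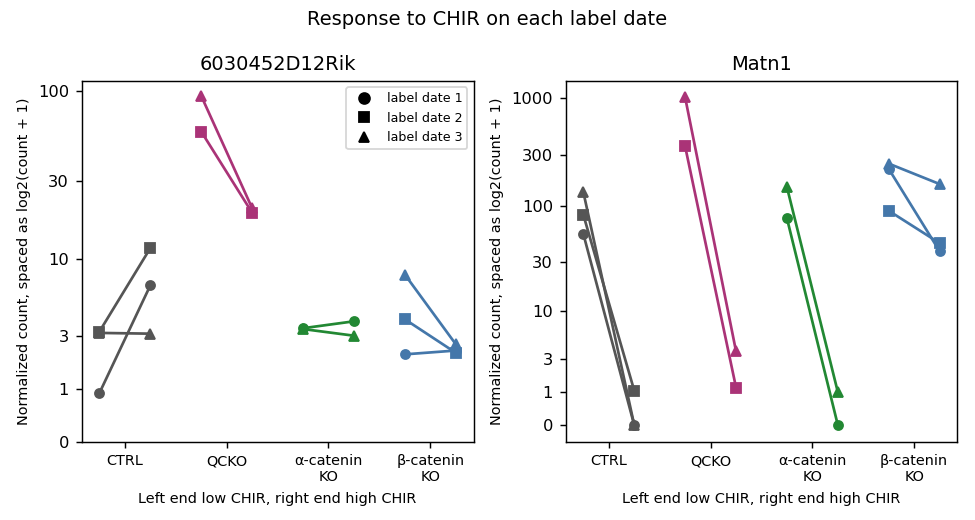
Normalized count of both genes in low CHIR (left end of each line) and high CHIR (right end) for each date, on an axis spaced as log2(count + 1). For Matn1 the lines of CTRL, QCKO and α-catenin KO reach 3.74 or lower in high CHIR, while those of β-catenin KO end between 38.1 and 160. For 6030452D12Rik the QCKO lines run from 58.1 and 93.5 to 19.3 and 20.6.

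The 2 genes did not share a pattern across libraries (Pearson r = 0.13, Spearman rho = 0.10, n = 20 libraries, as a description). The genes with a symbol most like *Matn1* by Pearson correlation of log2 values were *Sulf2* (r = 0.966), *Ntsr1* (0.960), *Nfkb1* (0.955), *Fgf1* (0.952) and *Wt1* (0.951). They were also the highest 5 among all genes tested, with or without a symbol. *Sulf2* encodes a sulfatase that edits heparan sulfate, *Ntsr1* a neurotensin receptor, *Nfkb1* an NF-κB subunit, *Fgf1* a fibroblast growth factor and *Wt1* a transcription factor of the kidney lineage. Each had its lowest group means in the high CHIR libraries of CTRL, QCKO and α-catenin KO. *Ntsr1* came nearest in range, with group means of 458 in CTRL, 1090 in QCKO, 467 in α-catenin KO and 260 in β-catenin KO in low CHIR. In high CHIR it was at 0, 0.604, 1.79 and 87.5 in the same order. *Fgf1* in high CHIR had means of 18.3 in CTRL, 62.2 in QCKO, 34.3 in α-catenin KO and 1226 in β-catenin KO. Libraries of a group share their treatment, so these correlations largely repeat the difference between groups.

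**Figure D5:**
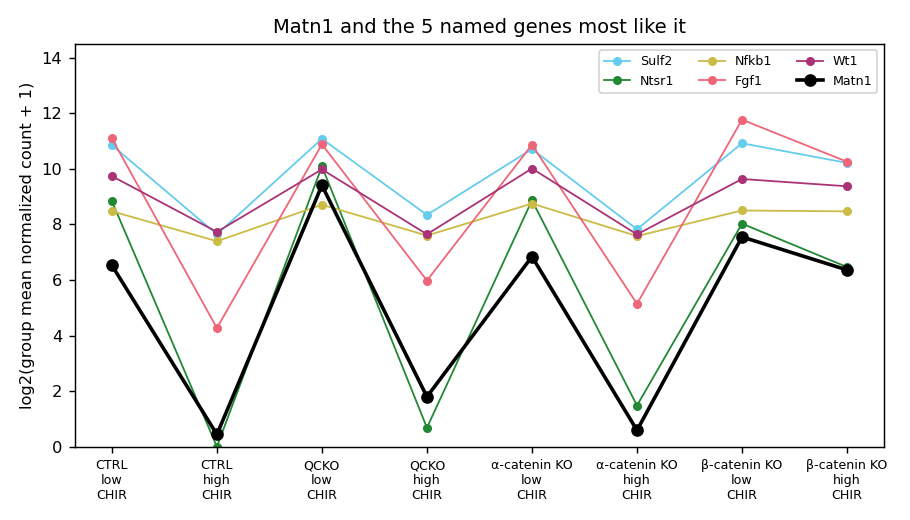
Group means, as log2(mean normalized count + 1), of Matn1 (black) and the 5 genes with a symbol whose Pearson correlation with it was highest. Lines join the values of a gene and levels are not adjusted for gene length. All 6 genes are low in the high CHIR groups other than β-catenin KO.

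Ranking by Spearman correlation replaced all 5 of these names by *Espn*, *Ccng1*, *Eda2r*, *Anxa8* and *Zfp608*. *Ccng1* (rho = 0.926) and *Eda2r* (rho = 0.919) are known targets of p53. Their group means in low CHIR were 1640 in CTRL and 2984 in QCKO for *Ccng1*, and 294 in CTRL and 541 in QCKO for *Eda2r*. In α-catenin KO and β-catenin KO in low CHIR, *Ccng1* stood at 1822 and 1874 and *Eda2r* at 318 and 281. All 5 genes of the Spearman ranking, and *Sulf2* and *Ntsr1* of the Pearson ranking, had their highest group mean in QCKO in low CHIR. *Matn1* was also highest there and those libraries entered both rankings, so this follows in part from how the genes were picked. The share of all genes with their highest mean in that group was not counted.

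For *6030452D12Rik* the closest genes with a symbol were *Ogfr* (r = 0.668), *Pierce1* (0.607), *Fiz1* (0.585), *Matk* (0.566) and *Lmln* (0.554). Among all genes tested, with or without a symbol, they ranked only 6, 17, 25, 34 and 43 in this order. Without the QCKO libraries in low CHIR, r was 0.343 for *Ogfr*, 0.320 for *Pierce1*, 0.305 for *Fiz1*, 0.492 for *Matk* and 0.513 for *Lmln*. *Ogfr*, the opioid growth factor receptor, had group means of 248 in CTRL and 439 in QCKO under low CHIR, then 240 and 347 under high CHIR. *Pierce1* had means of 21.1 and 45.6 under low CHIR, then 11.2 and 30.5 under high CHIR. *Matk* was the only name that the Spearman ranking kept.

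Other cartilage genes changed in both directions with CHIR in α-catenin KO and were not called in β-catenin KO. Of a list of 27 cartilage genes, 7 (25.9%) had an identifier. These had entered the deposited comparison tables because they differed somewhere in the study. Besides *Matn1*, 5 of the other 6 were tested. Between high and low CHIR in α-catenin KO, *Col9a1*, a chain of the collagen that coats cartilage fibrils, fell by 5.39 (adjusted p = 8.44e-04) and *Sox9*, the transcription factor of the chondrocyte programme, fell by 1.60 (adjusted p = 0.0169). *Sox6*, a partner of *Sox9* in cartilage, rose by 3.44 (adjusted p = 0.00438), and *Sox5* (0.52) and *Cnmd* (1.82) were not called, in the comparison where 3.35% of all genes were called. In β-catenin KO, where 0.018% of all genes were called, *Col9a1* (-1.69), *Sox9* (-0.68) and *Sox6* (1.70) were among the 5 not called. In α-catenin KO the median over these 5 genes was 0.52, against 0.01 over all genes tested. In high CHIR, *Col9a1* (4.45, adjusted p = 0.00263) and *Sox9* (1.30, adjusted p = 0.0454) were higher in β-catenin KO than in α-catenin KO and the other 3 were not called, where 2.14% of all genes were called, with a median of 0.03 against 0.00049 over all genes. Between QCKO and CTRL in low CHIR the log2 fold changes of the 5 genes ran from -0.35 for *Sox9* to 0.52 for *Cnmd*. *Hapln1*, which links aggrecan to hyaluronan, had a mean of 7.58 and was not tested.

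Markers of other kidney cells were available in part. Ureteric epithelium (6 of 13 genes with an identifier) summed to 734 to 1091 in QCKO and 359 to 2045 in CTRL in low CHIR. *Meis1*, the sole stroma marker of 10 with an identifier, ran from 1740 to 3220 in QCKO and from 2143 to 2961 in CTRL. *Tek*, the sole endothelial marker of 8, ran from 0.867 to 2.89 and from 0 to 3.25. All 3 ranges overlapped between QCKO and CTRL in low CHIR, unlike the ureteric and *Tek* values in high CHIR given above, and no leukocyte marker had an identifier. The 7 of 9 NPC markers with an identifier summed to 13527 to 13810 in QCKO and 13232 to 18440 in CTRL. Between low and high CHIR in α-catenin KO, *Tek* went from 5.16 to 7.64 up to 92.7 to 383 and *Meis1* from 1887 to 2165 down to 949 to 1094, and their part in the *Matn1* difference was not tested. *Tek* was likewise higher in high CHIR in CTRL (89.7 to 177) and QCKO (221 to 357) than in their low CHIR libraries. For *Tek*, a change in cell content and a response of the NPCs to CHIR cannot be told apart here. In β-catenin KO in low CHIR, *Meis1* lay between 1671 and 2121 and the NPC markers between 11204 and 20855. Both were lower in high CHIR, and their part in the lower *Matn1* values there was not tested. In β-catenin KO in high CHIR, *Tek* lay between 4.62 and 85.3, *Meis1* between 537 and 921 and the NPC markers between 5527 and 10484, compared with 2187 to 2615 for the NPC markers in α-catenin KO in high CHIR. The summed ureteric markers lay between 674 and 1238 in β-catenin KO and between 1377 and 2483 in α-catenin KO in high CHIR. The ranges of *Tek*, *Meis1*, the NPC markers and the ureteric markers did not overlap between the catenin knockouts in high CHIR. In that comparison 2319 of the 16691 genes had an unadjusted limma p under 0.05, and the share of all genes without overlap was not counted. The part of these markers in the *Matn1* difference there was not tested.

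In the RefSeq annotation of GRCm38.p6, 1 of the 2 genes was matched by symbol, *Matn1*, a protein-coding gene on the forward strand at chr4:130944385-130955476. The 250 bases before its start, chr4:130944135-130944384, are shown because its level in high CHIR differed between the catenin knockouts and β-catenin acts on DNA through Lef/Tcf factors.
Matn1: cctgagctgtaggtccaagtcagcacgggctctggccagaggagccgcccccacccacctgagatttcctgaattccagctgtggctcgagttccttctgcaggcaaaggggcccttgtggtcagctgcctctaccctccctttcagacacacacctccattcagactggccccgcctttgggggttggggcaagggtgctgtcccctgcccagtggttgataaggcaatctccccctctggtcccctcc
The stretch held 0 matches on either strand to the letters TCAAAG of the Lef/Tcf core, which 13.8% of 32851 promoter windows hold, and 0 matches to the letters ACAATG of the SOX core, which 10.7% hold. This says only that these letters are not in the window.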

How the data were processed

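Messenger RNA was sequenced in 20 libraries of 8 groups, named from the sample labels. The authors' processing notes name STAR, Subread featureCounts, Salmon and DESeq2, and the builds GRCm38, mm10 and GRCh38. Per the study's methods, DESeq2 gave the lists of differing genes, and the roles of the others are not given in the sources used here. The authors deposited normalized counts, a signal equal to reads divided by 1 size factor for each library. Whole reads were recovered from the steps between low values, less tellingly where the size factor is close to 1 (low CHIR replicate 2 of β-catenin KO, high CHIR replicate 3 of α-catenin KO). The deposited comparison tables also hold the authors' fold changes and p-values, of which none was used. They pair 4316 identifiers with symbols.

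Log2(normalized count + 1) was fitted with limma 3.58.1 (R 4.3.3) over all 20 libraries, 1 mean per group, with a mean-variance trend, for the 16691 genes with a mean of at least 10. P-values were adjusted over all genes tested by Benjamini-Hochberg. *6030452D12Rik* passed this minimum only through QCKO, so its fitted values among catenin knockouts are not read as tests. Calls required a log2 fold change beyond 0.5 either way with an adjusted p below 0.05. Alternatives were other minimums (none, 100), pseudocounts (0.25, 5), quantile normalization, only the groups compared, the date in the sample title as a replicate block, edgeR 4.0.16 and DESeq2 1.42.0 (both on recovered reads), and omitting single libraries. Intervals on pooled reads are exact binomial and, with no molecular barcodes, cover counting error only. The fit was tested on simulated data.

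Pairing by replicate number comes from the dates in the sample titles, whose meaning the labels do not state. Across genes, deviations from the group means of same-date libraries correlated at 0.0199 to 0.721 (median 0.199) over all 58 pairs of libraries. They correlated at 0.0474 to 0.721 (median 0.371) over the 14 pairs that join low and high CHIR of a group, or the catenin knockouts under the same CHIR dose. Between groups of 2 libraries, both dates give the same value. The genes named are the 2 members, the 5 genes with a symbol most correlated with each, the targeted genes, *Six2*, *Wnt4* and a cartilage list. Those named by Spearman correlation come from its alternative, and marker genes from fixed lists. The members and lists were chosen with earlier results of these data known. The study calls its replicates biological. Neither it nor the labels say whether they came from separate animals, so p-values measure the spread between these libraries.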

Additional observations from a re-analysis of the deposited data

How the results depend on the processing

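Of 160 alternative values of *Matn1*, 143 kept direction and side of the threshold or moved by less than 1 residual SD. *Matn1* was called in all 13 alternatives of high against low CHIR in α-catenin KO and in all 14 of β-catenin KO against α-catenin KO in high CHIR (adjusted p at most 0.0480), with log2 fold changes of -7.66 to -4.37 and 3.70 to 7.17, each smallest in size with a pseudocount of 5 and largest with DESeq2. Its response difference between β-catenin KO and α-catenin KO passed with the replicate block (4.89, adjusted p = 0.0046), with DESeq2 (6.45, adjusted p = 0.0229) and without β-catenin KO replicate 1 in low CHIR (5.08, adjusted p = 0.0451) or replicate 2 in high CHIR (5.15, adjusted p = 0.0464). Leaving out single libraries gave 4.25 to 5.40. The replicate block changed no other call of *Matn1*.

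Values near 0 reads depended on the setting. *Matn1* in high CHIR differed between QCKO and CTRL by 1.34, and by 2.47 and 0.47 with pseudocounts of 0.25 and 5, 2.60 with edgeR and 2.85 with DESeq2, and between β-catenin KO and CTRL by 5.70, and by 7.24, 3.74, 7.52 and 7.84 in the same order. *6030452D12Rik* in QCKO against CTRL in low CHIR was 4.53, and 3.42 (pseudocount of 5) to 4.99 (DESeq2) over its alternatives. *6030452D12Rik* in β-catenin KO against CTRL in high CHIR was -1.14, and -1.87 with quantile normalization. Its log2 fold change between high and low CHIR in α-catenin KO changed sign with edgeR (-0.021) and DESeq2 (-0.0036) and ranged from -0.13 to 0.14 without single libraries. Between β-catenin KO and α-catenin KO in low CHIR it changed sign with quantile normalization (-0.058) and ranged from -0.16 to 0.60 without single libraries. A minimum of 100 left it untested. *6030452D12Rik* entered the fits only through QCKO, so its values among the catenin knockouts say nothing of its stability. The cause was not tested.

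Counts of called genes ranged from 166 to 1150 (559 in the analysis reported) for high against low CHIR in α-catenin KO, 72 to 1243 (358) for β-catenin KO against α-catenin KO in high CHIR, 0 to 106 (2) for the same in low CHIR, 0 to 51 (3) for high against low CHIR in β-catenin KO, 7 to 158 (25) for the response difference and 0 to 143 (0) for QCKO against CTRL in high CHIR, where 143 came without CTRL replicate 1.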
